A study of Mus musculus with 15 samples.

Results

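Ebf1, Ebf2 and Ebf3 encode early B cell factors, and their levels were followed in the first branchial arch of mouse embryos. The first arch gives rise to the jaws, the upper from its maxillary branch and the lower from its mandibular branch. All 11 probe sets annotated to Ebf1 (5), Ebf2 (3) or Ebf3 (3) were taken, 3 of 18194 genes with a probe set of 1 symbol, and 10 of them were bright enough to be tested. The genes were chosen by measured values, because Ebf2 was among the largest increases in the Dlx5/6 mutant mandibular branch against the WT (wild-type) mandibular branch, so the values of that comparison are given below as a description with no test.

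The 15 arrays, all of E10.5 embryos (named by days of gestation), formed 5 groups of 3: Dlx5/6 mutant mandibular branch, WT mandibular branch, WT maxillary branch set 1 (labelled WT_MXA), KO maxillary branch, and WT maxillary branch set 2 (labelled WT_MXA2). The labels named neither the gene lost in the KO arrays nor what set the WT maxillary groups apart. They gave no strain and did not say how the alleles were made, and their shared description was a plan that listed dlx2, dlx1/2 and Dlx5/6 mutants and foresaw pooling of arches. Since nothing states that the arrays of a group hold different embryos, p-values here measure only the spread among these arrays, which may be technical.

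EBF proteins are helix-loop-helix transcription factors with a DNA-binding domain of their own, and they bind DNA as dimers. Ebf1 is known for committing lymphoid progenitors to the B cell fate, and the family also acts in fat cell precursors, in bone-forming and marrow stromal cells and in differentiating neurons. Dlx5 and Dlx6 are homeobox genes of the lower part of the arch, and mice that lack both are known to form a lower jaw with features of the upper jaw.

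The targeted genes bore out the Dlx5/6 label. Dlx5 had a signal of 10.9 ± 2.97 in Dlx5/6 mutant mandibular arrays and 727 ± 40.5 in WT mandibular arrays, and Dlx6 had 3.32 ± 1.52 in Dlx5/6 mutant mandibular and 249.6 ± 51.3 in WT mandibular arrays (mean ± SD of the deposited signal, n = 3 each, as throughout). In the KO arrays Dlx2 had 3.36 ± 0.180 against 422 ± 20.1 in WT maxillary set 2, and Dlx1 had 209 ± 11.7 against 711 ± 30.8. A dap spike-in control separated the arrays, with a signal of 332.6 to 391.5 on the 9 arrays of the Dlx5/6 mutant mandibular, WT mandibular and WT maxillary set 1 groups and 2928 to 3298 on the 6 arrays of the KO and WT maxillary set 2 groups. The 4 comparisons between branches and genotypes below stay within these sets of arrays, and values that cross them are named as such. Arrays of 1 group correlated at r = 0.984 to 0.989, and the median signal per array was 26.6 to 33.4.

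Of the 3 genes, 2 matched the RefSeq promoter table, Ebf1 and Ebf3, and Ebf2 is named only. Their sequences are shown to set base composition and homeobox motifs side by side. Both are the 250 bases before the annotated start, from RefSeq on GRCm38.p6. Each TAATT (a sequence found in homeobox binding sites, searched on both strands) is in capitals. Ebf1 is read from the plus strand at chr11:44617850-44618099 and Ebf3 from the minus strand at chr7:137314446-137314695.
Ebf1: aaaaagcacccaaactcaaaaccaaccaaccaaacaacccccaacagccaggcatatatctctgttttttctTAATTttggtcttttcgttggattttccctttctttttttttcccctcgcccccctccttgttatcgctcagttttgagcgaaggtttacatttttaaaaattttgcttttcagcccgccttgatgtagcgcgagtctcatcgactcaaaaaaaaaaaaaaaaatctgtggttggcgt
Ebf3: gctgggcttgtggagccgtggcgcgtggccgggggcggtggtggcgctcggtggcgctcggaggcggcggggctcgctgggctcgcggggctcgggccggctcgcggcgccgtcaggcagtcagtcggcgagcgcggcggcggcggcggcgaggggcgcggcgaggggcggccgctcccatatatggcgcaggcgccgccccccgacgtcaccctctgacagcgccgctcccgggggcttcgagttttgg
The Ebf1 stretch had a GC content of 40% and 1 TAATT, which began 178 bases before the start. The Ebf3 stretch had a GC content of 80% and no such match. The motif TAATT was found in 25.0% of the 32851 promoters of that length. A second annotated Ebf1 start, at chr11:44619978-44620227 on the plus strand, had 0 matches and a GC content of 52%. A match of letters is a description and not a binding site, and its absence concerns only this window.

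Ebf2 was at its lowest in the WT mandibular branch on all 3 of its probe sets, and its signal there overlapped no other group. Probe set 1418494_at had signals of 281.5, 290.2 and 301.7 in Dlx5/6 mutant mandibular arrays, against 77.3, 93.0 and 110.0 in WT mandibular arrays. All mutant arrays lay far above all WT mandibular arrays, with group means of 291 ± 10.2 in Dlx5/6 mutant mandibular and 93.4 ± 16.3 in WT mandibular, a ratio of 3.12. On the log2(signal + 32) scale used for all differences, which understates changes of dim probe sets, the difference was 1.37 ± 0.11 (SE). Ebf2 ranked number 10 of 13934 genes by increase in this comparison. Just above it stood Itih5 with 1.59 and Foxl2os with 1.43, and just below it Igf1 with 1.31 and Sfrp2 with 1.26.

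The other Ebf2 probe sets gave the same order of mutant and WT mandibular arrays. Probe set 1449102_at had 184.6, 180.2 and 174.1 in Dlx5/6 mutant mandibular arrays, against 56.5, 68.6 and 79.5 in WT mandibular arrays. Probe set 1449101_at had 125.4, 122.6 and 148.7 in Dlx5/6 mutant mandibular arrays, against 54.3, 62.9 and 68.1 in WT mandibular arrays. The groups did not overlap on either, and the log2 differences were 1.08 ± 0.15 and 0.80 ± 0.11. In these bulk samples, fewer cells that hold an RNA and less of that RNA per cell cannot be told apart.

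Ebf1 was also higher in the Dlx5/6 mutant mandibular branch on 3 of its 4 kept probe sets. Probe set 1416301_a_at had 144.9, 154.6 and 151.5 in Dlx5/6 mutant mandibular arrays, against 30.2, 68.0 and 71.9 in WT mandibular arrays, a log2 difference of 1.07 ± 0.15. Probe set 1416302_at, the brightest of those without a suffix for several transcripts on the normalized log2 scale, had 74.8, 87.9 and 113.2 in Dlx5/6 mutant mandibular arrays, against 26.7, 55.6 and 63.4 in WT mandibular arrays, a difference of 0.64 ± 0.14. On both, the lowest mutant array was above the highest WT mandibular array. Probe set 1448293_at differed less, by 0.32 ± 0.12, and probe set 1439789_at showed no separation, with means of 58.1 in Dlx5/6 mutant mandibular and 57.2 in WT mandibular arrays. Probe set 1457441_at was too dim to be kept, with signals of 1.66 to 15.7 over all 15 arrays.

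Ebf3 ran the other way, with lower signals in the Dlx5/6 mutant mandibular branch on all 3 of its probe sets. Probe set 1452751_at had 511.4, 470.0 and 574.2 in Dlx5/6 mutant mandibular arrays, against 785.4, 753.8 and 721.3 in WT mandibular arrays. All mutant arrays lay below all WT mandibular arrays, by 0.52 ± 0.08 on the log2 scale (-0.52). Probe set 1460666_a_at had 350 ± 21.9 in Dlx5/6 mutant mandibular and 505 ± 1.49 in WT mandibular arrays, and probe set 1428349_s_at, whose suffix marks probes that may match other transcripts, had 414 ± 23.1 in Dlx5/6 mutant mandibular and 610 ± 40.8 in WT mandibular arrays. Counted over the family, the arrays of the groups did not overlap for 9 of the 10 kept probe sets, 6 higher and 3 lower in the mutant, where 19.5% of all 31643 kept probe sets did not overlap (9.71% higher and 9.76% lower) and 2.66% were called at an adjusted p under 0.05. Nothing is read from these counts, since this comparison chose the genes.

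**Figure D1:**
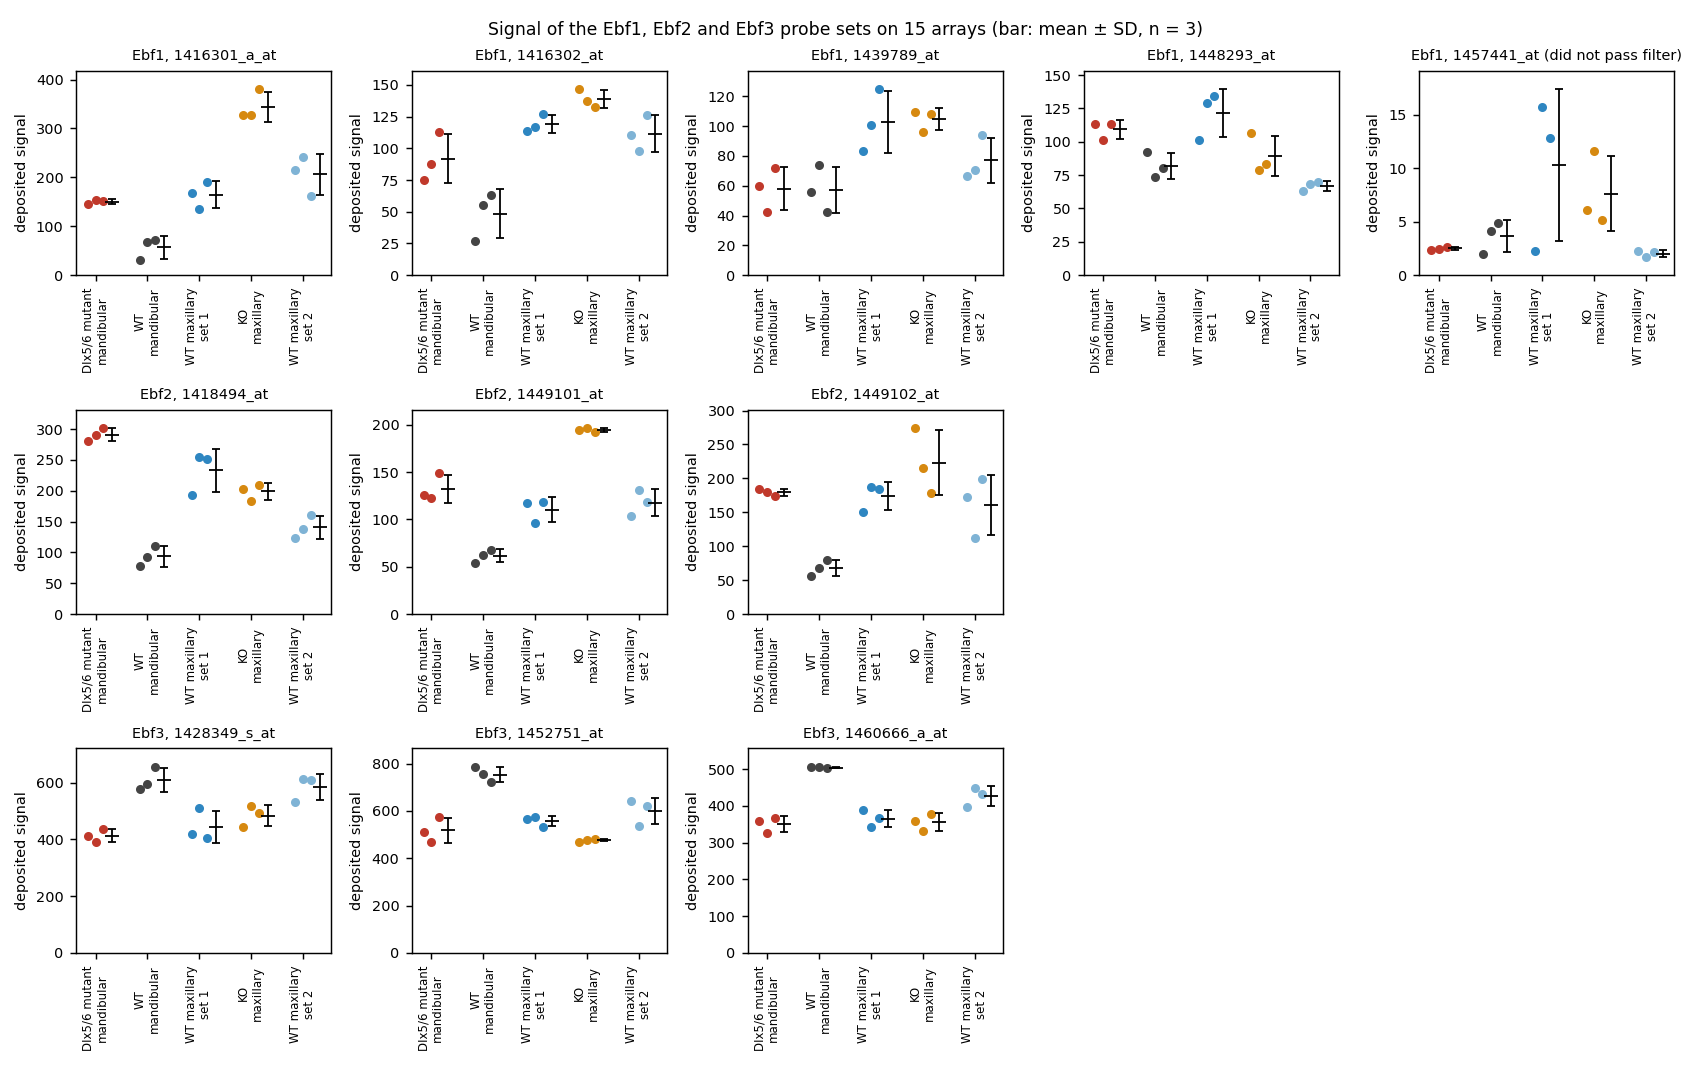
Deposited signal (y axis, linear, from 0) of each Ebf1, Ebf2 and Ebf3 probe set on 15 arrays, by group along the x axis; points are arrays and bars the mean ± SD of 3. On Ebf2 probe set 1418494_at the Dlx5/6 mutant mandibular mean was 291 and the WT mandibular mean 93.4, and on Ebf3 probe set 1452751_at the means were 519 in Dlx5/6 mutant mandibular and 754 in WT mandibular arrays.

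In wild-type arches the mandibular branch had less Ebf1 and more Ebf3 than the maxillary branch of set 1. Ebf1 probe set 1416301_a_at had a signal of 56.7 ± 23.0 in WT mandibular and 164 ± 27.8 in WT maxillary set 1 arrays, a log2 difference of -1.14 ± 0.15 (limma, adjusted p = 3.4e-05). The highest WT mandibular array on this probe set was below the lowest of WT maxillary set 1, and the groups did not overlap on any of the 7 tested Ebf1 and Ebf3 probe sets, where 17.6% of all probe sets did not. Ebf1 probe set 1416302_at had 48.5 ± 19.3 in WT mandibular and 119.0 ± 7.09 in WT maxillary set 1 arrays, a difference of -0.90 ± 0.14 (limma, adjusted p = 3.2e-04). The remaining Ebf1 probe sets did not pass, with differences of -0.57 for 1439789_at (limma, adjusted p = 0.051) and -0.41 for 1448293_at (limma, adjusted p = 0.088). Probe set 1439789_at passed under 6 alternatives (no further scaling, the larger pseudocount, the stricter filter, array weights, and without WT mandibular replicate 2 or WT maxillary set 1 replicate 1). Probe set 1448293_at passed with array weights, and with set 2 in place of set 1 it turned to 0.21 (limma, adjusted p = 0.35), every WT mandibular array then lying above every set 2 array.

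Ebf3 rose in the WT mandibular branch on all 3 probe sets against set 1. Probe set 1452751_at had 753.5 ± 32.05 in WT mandibular and 557 ± 21.1 in WT maxillary set 1 arrays, a log2 difference of 0.41 ± 0.08 (limma, adjusted p = 0.0023). Probe sets 1460666_a_at and 1428349_s_at differed by 0.43 ± 0.08 and 0.43 ± 0.09 (limma, adjusted p = 0.0024 and 0.0072). The call for 1428349_s_at was lost without WT mandibular replicate 3, without WT maxillary set 1 replicate 3, without the intensity trend and with set 2 in place of set 1 (0.04, adjusted p = 0.86), and with set 2 that for 1460666_a_at was lost too (0.20, adjusted p = 0.124). In all, 5 of the 7 tested Ebf1 and Ebf3 probe sets were called, 2 lower and 3 higher, where 2.64% of all probe sets were (1.51% lower and 1.13% higher). These probe sets read only 2 genes and are not independent of each other. The WT mandibular arrays are also part of the comparison that chose the genes.

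Ebf2 shares its WT mandibular arrays with the comparison that chose it, so its values against the maxillary branch carry no test. Probe set 1418494_at had 77.3, 93.0 and 110.0 in WT mandibular arrays, against 193.3, 255.4 and 251.8 in WT maxillary set 1 arrays, a log2 difference of -1.07 ± 0.11. Probe sets 1449101_at and 1449102_at differed by -0.58 and -1.02. Thus all 3 Ebf2 probe sets were lower in WT mandibular than in WT maxillary set 1 arrays, with no overlap.

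In the Dlx5/6 mutant mandibular branch, 0 of the 7 tested Ebf1 and Ebf3 probe sets differed by limma from WT maxillary set 1, where 0.594% of all probe sets were called, and 1 had an unadjusted p under 0.05. Ebf1 probe set 1416302_at had 92.0 ± 19.5 in Dlx5/6 mutant mandibular and 119.0 ± 7.09 in WT maxillary set 1 arrays, a log2 difference of -0.27 ± 0.14 (limma, adjusted p = 0.65). The highest Dlx5/6 mutant mandibular array on it, at 113.2, lay narrowly below the lowest WT maxillary set 1 array, at 113.4. Ebf3 probe set 1452751_at had 519 ± 52.4 in Dlx5/6 mutant mandibular and 557 ± 21.1 in WT maxillary set 1 arrays, a difference of -0.11 ± 0.08 (limma, adjusted p = 0.79). These p-values do not show that the levels were equal. The widest gap was -0.55 ± 0.16 on Ebf1 probe set 1439789_at, where the mutant arrays were also all lower. The Ebf2 differences carry no test and varied by probe set. On 1418494_at the lowest Dlx5/6 mutant mandibular signal was 281.5 and the highest of WT maxillary set 1 was 255.4, a difference of 0.30 ± 0.11. On 1449101_at the groups did not overlap either (0.23 ± 0.11), while on 1449102_at they did, with 174.1 to 184.6 in Dlx5/6 mutant mandibular and 150.8 to 187.2 in WT maxillary set 1 arrays (0.06 ± 0.15, and -0.02 to 0.10 without single arrays). With set 2 in place of set 1, which crosses the sets of arrays, Ebf3 probe sets 1428349_s_at and 1460666_a_at were called lower in the Dlx5/6 mutant mandibular branch by -0.48 and -0.27 (limma, adjusted p = 0.0011 and 0.031), and Ebf1 probe set 1448293_at was called higher by 0.53 (limma, adjusted p = 0.0063).

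The KO and WT maxillary set 2 groups share no array with the comparison that chose the genes, and all 3 genes were tested there. Ebf2 probe set 1449101_at had 194.4, 196.5 and 192.0 in KO maxillary arrays, against 103.1, 131.4 and 118.8 in WT maxillary set 2 arrays. Every KO array lay above every set 2 array, and the log2 difference was 0.59 ± 0.11 (limma, adjusted p = 0.0060). The call was lost without WT maxillary set 2 replicate 1, where the difference was 0.52 (limma, adjusted p = 0.057). The other Ebf2 probe sets did not pass: 1418494_at had 199 ± 13.8 in KO maxillary and 141 ± 18.5 in WT maxillary set 2 arrays, a difference of 0.41 ± 0.11 (limma, adjusted p = 0.104), and 1449102_at also differed by 0.41, with overlapping groups.

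Ebf1 probe set 1416301_a_at had 326.7, 327.3 and 380.1 in KO maxillary arrays, against 214.4, 241.9 and 161.2 in WT maxillary set 2 arrays. The KO arrays were all higher, and the log2 difference was 0.68 ± 0.15 (limma, adjusted p = 0.031). That call was lost in 5 of the 6 fits that left out an array, with an adjusted p of up to 0.208, and with a common median in place of quantile normalization, a pseudocount of 8, no filter or no intensity trend. Ebf1 probe set 1416302_at, with 139 ± 6.98 in KO maxillary and 112 ± 14.3 in WT maxillary set 2 arrays, did not pass (0.24 ± 0.14, adjusted p = 0.63).

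Ebf3 did not pass on any probe set in the KO comparison, although all KO arrays lay below all set 2 arrays on each. Probe set 1452751_at had 470.5, 477.7 and 479.3 in KO maxillary arrays, against 641.2, 535.8 and 619.7 in WT maxillary set 2 arrays, a log2 difference of -0.29 ± 0.08 (limma, adjusted p = 0.092). With the arrays shifted to a common median it was called at -0.37 (limma, adjusted p = 0.044). Over the family, 2 of 10 probe sets were called, both higher, where 0.913% of all probe sets were called and 0.465% were called higher, and 8 had an unadjusted p under 0.05. The groups did not overlap on 9 of 10 (6 higher and 3 lower in the KO), where 15% of all probe sets did not (8.41% higher and 6.63% lower). The 10 probe sets read only 3 genes and are not independent of each other.

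**Figure D2:**
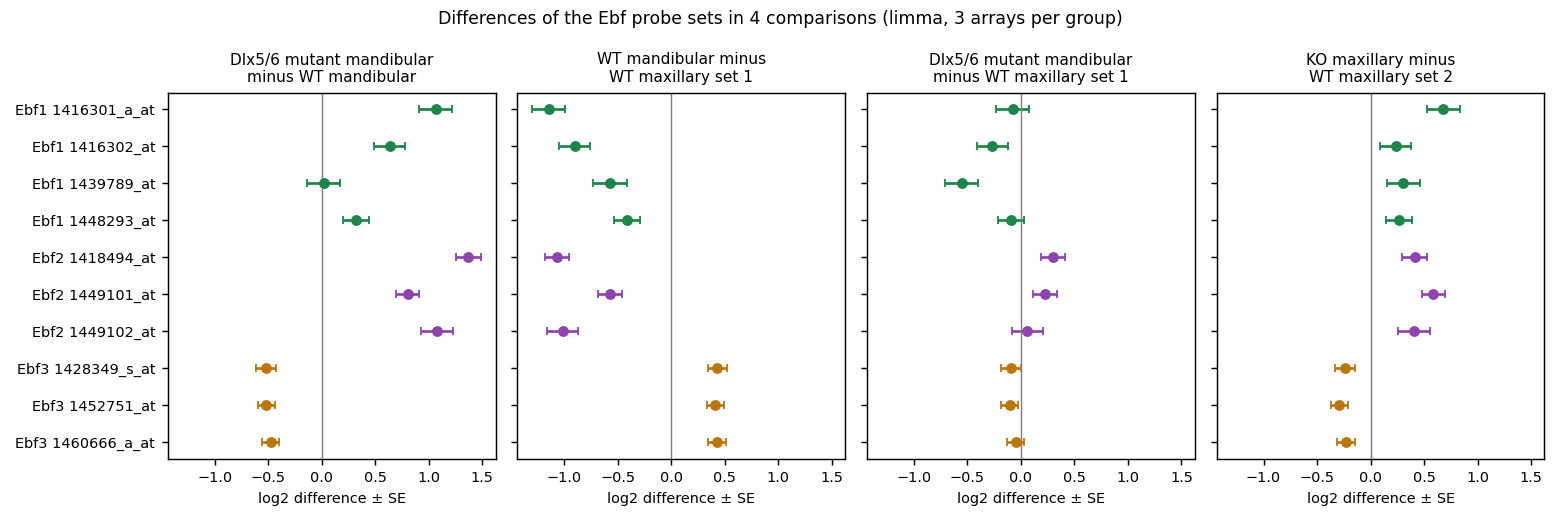
Log2 difference ± SE (x axis) of the 10 kept Ebf probe sets (y axis) in 4 comparisons of 3 arrays per group. Differences of Ebf2 probe set 1418494_at were 1.37 for Dlx5/6 mutant mandibular minus WT mandibular and 0.41 for KO maxillary minus WT maxillary set 2, and those of Ebf3 probe set 1452751_at were -0.52 and -0.29.

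The WT maxillary groups themselves differed on 3 of the 10 Ebf probe sets, where 8.49% of all probe sets did, and levels set across the sets of arrays are to be read with that. Against set 1, set 2 was lower on Ebf2 probe set 1418494_at by -0.59 (limma, adjusted p = 0.0017) and on Ebf1 probe set 1448293_at by -0.62 (limma, adjusted p = 0.0023). It was higher on Ebf3 probe set 1428349_s_at by 0.39 (limma, adjusted p = 0.0087). The batch of arrays and whatever else set the WT maxillary groups apart cannot be told apart. Across the sets of arrays and in descending order of signal, Ebf2 probe set 1418494_at stood at 291 in Dlx5/6 mutant mandibular, 233 in WT maxillary set 1, 199 in KO maxillary, 141 in WT maxillary set 2 and 93.4 in WT mandibular arrays, and of these neighbours only WT maxillary set 1 and KO maxillary overlapped. On 1449101_at the KO group came first instead, with 194 against 132 in Dlx5/6 mutant mandibular arrays. WT mandibular arrays had the highest mean on all 3 Ebf3 probe sets and overlapped only WT maxillary set 2, on 1428349_s_at.

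Over the 9 arrays that share a spike-in level, the Ebf2 probe sets correlated with each other at r = 0.92 to 0.98 and Ebf2 with Ebf3 (1418494_at and 1452751_at) at r = -0.95. Over all 15 arrays, which cross the sets of arrays, these were 0.63 to 0.83 and -0.81. Such values follow the differences between groups and are descriptions only. By the same measure over 15 arrays, the genes most like Ebf2 were Cited2 (r = 0.91), Dusp6 (0.88), Sulf1 (0.88), Twist1 (0.87) and Mylip (0.87). Those most like Ebf1 (1416302_at) were Phlda1 (0.93), Alx1 (0.92), Crnde (0.92), Slc22a23 (0.91) and Pax9 (0.91). Those most like Ebf3 were Epha3 (0.95), Igf2os (0.94), Pwwp3b (0.92), Dlx5 (0.90) and Shox2 (0.90). The Ebf1 list holds for that probe set only. Over 15 arrays 1416302_at correlated with the other kept Ebf1 probe sets at r = 0.89 (1416301_a_at), 0.67 (1439789_at) and 0.08 (1448293_at). Over the 9 arrays these were 0.94, 0.57 and 0.69.

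Genes of bone-forming and stromal cells, a tissue in which EBF proteins act in mice, were followed as a list of 14, of which 12 were kept. In Dlx5/6 mutant mandibular against WT mandibular arrays 3 rose and 0 fell, with a list median of 0.22 against -0.01 over all genes, of which 1.54% rose. Kitl, the ligand of the Kit receptor, had 386 ± 33.0 in Dlx5/6 mutant mandibular and 174 ± 5.65 in WT mandibular arrays (1.03 ± 0.09, limma, adjusted p = 1.2e-07). Col1a2, a chain of type I collagen, rose by 0.65 (limma, adjusted p = 4.2e-05), and Cxcl12, a chemokine of stromal cells, by 0.37 (limma, adjusted p = 0.0062, and 0.055 without the intensity trend). The collagen partner Col1a1 and the osteoblast genes Sp7, Alpl and Ibsp did not pass, and the last 3 were dim, with means of 13.9 to 36.9 in Dlx5/6 mutant mandibular arrays.

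In WT mandibular against WT maxillary set 1 arrays 3 of the 12 fell, where 1.97% of all genes did. They were Col1a2 by -0.71, Kitl by -0.56 and Angpt1, a ligand of the endothelial receptor Tek, by -0.54 (limma, adjusted p = 8.2e-06, 5.3e-04 and 0.020). The Angpt1 call was lost with the compared groups alone, without WT mandibular replicate 2 (adjusted p = 0.122) or WT maxillary set 1 replicate 1 (adjusted p = 0.136), and the Col1a2 call was lost with set 2 as the maxillary group (-0.21, adjusted p = 0.138). Kitl was the 1 list gene that differed between the Dlx5/6 mutant mandibular and WT maxillary set 1 groups (0.47, limma, adjusted p = 0.012), where 0.251% of all genes were called higher. That call was lost in 3 of the 6 fits that left out an array, with an adjusted p of up to 0.092.

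In KO maxillary against WT maxillary set 2 arrays 3 of the 12 rose, with a median of 0.21 against -0.00 over all genes, of which 0.603% rose. Foxc1, a forkhead factor of arch mesenchyme, had 536 ± 42.7 in KO maxillary and 302 ± 15.6 in WT maxillary set 2 arrays (0.78 ± 0.09, limma, adjusted p = 2.6e-05). Cxcl12 had 932.5 ± 47.0 in KO maxillary and 578 ± 39.8 in WT maxillary set 2 arrays (0.67 ± 0.08, limma, adjusted p = 1.0e-05). Col1a2 rose by 0.49 (limma, adjusted p = 0.0028, and 0.052 without the intensity trend), and Kitl did not pass (0.20, adjusted p = 0.45). Against set 1, Col1a2 in the KO arrays differed by -0.0044 (limma, adjusted p = 0.98).

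**Figure D3:**
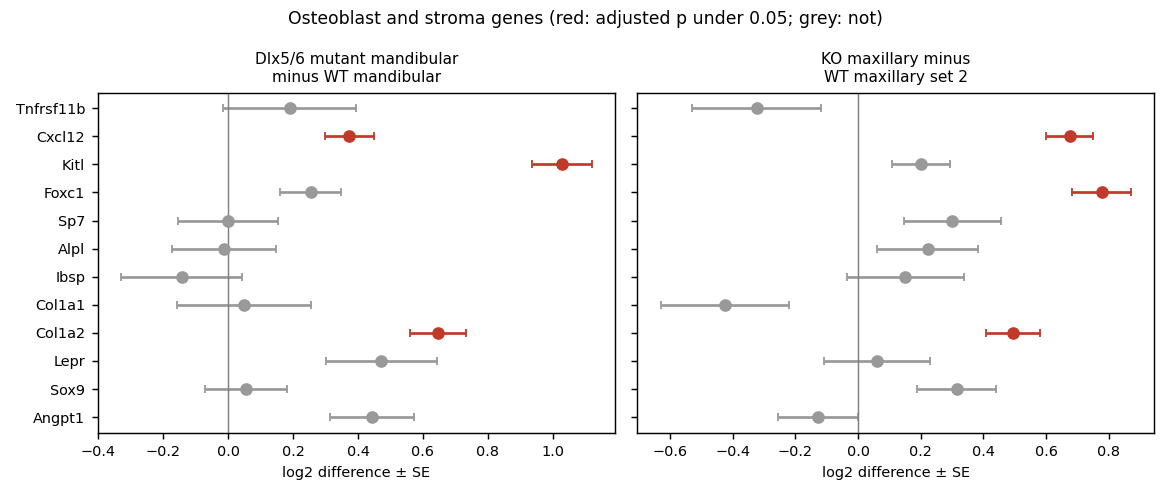
Log2 difference ± SE (x axis) of the 12 kept bone and stroma genes (y axis) for Dlx5/6 mutant mandibular minus WT mandibular (left) and KO maxillary minus WT maxillary set 2 (right), 3 arrays per group; red marks an adjusted p under 0.05. Kitl lay at 1.03 on the left and 0.20 on the right, and Foxc1 at 0.25 and 0.78.

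Among partners and cofactors of EBF proteins, 14 of 15 genes were kept and 0 passed in 3 of the 4 comparisons, with 3, 2 and 2 genes at an unadjusted p under 0.05. Zfp521, a zinc-finger protein known to bind EBF1 and restrain it, had 1063 ± 7.002 in Dlx5/6 mutant mandibular and 903 ± 11.3 in WT mandibular arrays, a difference of 0.23 (limma, adjusted p = 0.053). It passed under 4 alternatives, with no further scaling, the larger pseudocount, the stricter filter and array weights (adjusted p = 0.048, 0.046, 0.032 and 0.033), and not in the 6 fits that left out an array, where the adjusted p was 0.103 to 0.163. Its related protein Zfp423 differed by 0.08 between those groups. The fourth family member, Ebf4, was dim, with signals of 2.76 to 40.7 over all arrays, and was called in none of the 4 comparisons. In the KO arrays Id3, an inhibitor of other helix-loop-helix factors, rose by 0.27 (limma, adjusted p = 0.014), a call lost in 4 of the 6 fits that left out an array, and separately with a common median (adjusted p = 0.16) or without the intensity trend (adjusted p = 0.145).

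Lists for the other tissues of EBF action gave fewer calls between mutant and control branches. Of fat cell genes, 9 of 12 were kept, and the 1 call was Pdgfra, a receptor of mesenchymal cells, higher by 0.33 in WT mandibular than in WT maxillary set 1 arrays (limma, adjusted p = 0.0011), where 1.49% of all genes were called higher. Of B cell genes, 4 of 11 were kept and 0 passed in any comparison by limma, with 1 at an unadjusted p under 0.05 in each comparison with WT mandibular arrays and 0 in the other 2. Of muscle genes known to depend on EBF proteins or to mark muscle, 7 of 8 were kept. Myf5, a muscle determination factor, fell by 0.92 in Dlx5/6 mutant mandibular against WT mandibular arrays (limma, adjusted p = 0.0011), where 1.56% of all genes fell. Myf5 and Tcf21 were higher by 1.12 and 1.13 in WT mandibular than in WT maxillary set 1 arrays (limma, adjusted p = 7.3e-05 and 2.7e-04), where 1.49% of all genes were. Myf5 was dim on all arrays of both WT maxillary sets.

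Nerve cell genes strongly separated both mandibular groups from WT maxillary set 1. Of 10 kept genes of the neurogenic list, 9 were lower in WT mandibular and also in Dlx5/6 mutant mandibular arrays than in WT maxillary set 1, where 1.97% and 0.545% of all genes were, for example Stmn2 by -2.74 and -2.40 (limma, adjusted p = 6.3e-13 and 3.0e-11). These comparisons share the set 1 arrays, and the WT maxillary sets differed in such genes. Stmn2 had a mean signal of 280 in set 1, 103 in set 2 and 13.1 in WT mandibular arrays. Nhlh2 had 95.0 in set 1 and 24.1 in set 2, against 23.8 in WT mandibular arrays. The values of set 2 cross the sets of arrays. In Dlx5/6 mutant mandibular against WT mandibular arrays 1 was higher, where 1.54% of all genes were, Neurod1 (0.56, limma, adjusted p = 0.018), and that call was lost in 4 of the 6 fits that left out an array, with the larger pseudocount and with the compared groups alone. In KO maxillary against WT maxillary set 2 arrays Lhx2 was higher by 0.74 and Neurog1 lower by -0.78 (limma, adjusted p = 0.0039 and 0.030), where 0.603% of all genes were higher and 0.596% lower. The Neurog1 call was lost in 4 of the 6 fits that left out an array and with the compared groups alone.

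The labelled tissue showed its markers. All 14 arch mesenchyme genes were kept, and their mean log2 level was 8.91 in Dlx5/6 mutant mandibular, 8.84 in WT mandibular, 9.01 in WT maxillary set 1, 8.55 in KO maxillary and 9.02 in WT maxillary set 2 arrays. Without Dlx1 and Dlx2, which were low in the KO arrays, the other 12 averaged 8.89 in KO maxillary and 8.99 in WT maxillary set 2 arrays. Alx4 was dim on all WT maxillary set 1 and all KO arrays, and Dlx2 on all KO arrays. In Dlx5/6 mutant mandibular against WT mandibular arrays Dlx1, Prrx2 and Twist1 rose by 0.72, 0.50 and 0.45, and Msx1 fell by 0.57 (limma, adjusted p = 4.3e-07, 4.9e-05, 6.0e-04 and 0.017). Of all genes, 1.54% rose and 1.56% fell there. The Msx1 call was lost in 4 of the 6 fits that left out an array, without the intensity trend and with the compared groups alone. In WT mandibular against WT maxillary set 1 arrays 6 of the 14 were lower and 1 higher, where 1.97% and 1.49% of all genes were. For Dlx5/6 mutant mandibular against set 1 these were 2 and 1 (0.545% and 0.251% of all genes). For KO against set 2 they were 5 and 1 (0.596% and 0.603%). Of 9 mandibular marker genes, 9 fell in Dlx5/6 mutant mandibular against WT mandibular arrays, where 1.56% of all genes did. They include the targeted genes Dlx5 and Dlx6, so part of this count follows from the mutation itself. Of 8 maxillary marker genes 7 rose, where 1.54% of all genes did. Lists of this kind rest partly on earlier work on Dlx mutant arches and are not independent evidence.

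Markers of other cells moved with some of these results. The 10 macrophage genes had summed signals of 528 to 589 in Dlx5/6 mutant mandibular, 342 to 355 in WT mandibular and 543 to 557 in WT maxillary set 1 arrays, and of 739 to 835 in KO maxillary and 516 to 560 in WT maxillary set 2 arrays. The sums thus had the direction of Ebf1 and Ebf2 in these pairs. Csf1r, a defining receptor of macrophages, differed by 0.59 in mutant against WT mandibular arrays and by -0.62 in WT mandibular against set 1 arrays. In KO against set 2 arrays it differed by 0.59 (limma, adjusted p = 4.1e-04, 1.7e-04 and 0.0011 in this order). Csf1r was the only call among the 10 in the first 2 pairs, and Mrc1 was also called in the KO (0.52, limma, adjusted p = 0.026). Of all genes, 1.54% were called higher, 1.97% lower and 0.603% higher in these pairs. Of the 10, only Aif1 was dim on all arrays of a group, in WT mandibular and WT maxillary set 1.

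The 13 kept sensory neuron genes had summed signals of 592 to 689 in Dlx5/6 mutant mandibular, 571 to 630 in WT mandibular and 2998 to 3057 in WT maxillary set 1 arrays, and of 1037 to 1047 in KO maxillary and 1247 to 1283 in WT maxillary set 2 arrays. The sums of the mandibular groups overlapped, but the mean log2 levels of the list did not. These were 6.03 to 6.13 in Dlx5/6 mutant mandibular and 5.89 to 5.94 in WT mandibular arrays. Isl1 made up much of the sums and was lower in the mutant, at 275 against 345 in WT mandibular arrays. Neurog1, Pou4f1 and Elavl3 were dim on all Dlx5/6 mutant mandibular arrays, and these 3 with Neurod1, Stmn2 and Ina on all WT mandibular arrays. The 4 kept genes of crest glia were likewise lower in both mandibular groups, at 201 to 246 in Dlx5/6 mutant mandibular, 172 to 228 in WT mandibular and 604 to 765 in WT maxillary set 1 arrays. The 8 endothelium genes summed to 872 to 1049 in Dlx5/6 mutant mandibular and 863 to 980 in WT mandibular arrays, and to 1243 to 1450 in KO maxillary and 947 to 1034 in WT maxillary set 2 arrays, with Emcn higher in the KO (0.47, limma, adjusted p = 0.0096). None of the 8 epithelium genes was called in the 4 comparisons. The part of these cells in the Ebf differences was not tested.

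**Figure D4:**
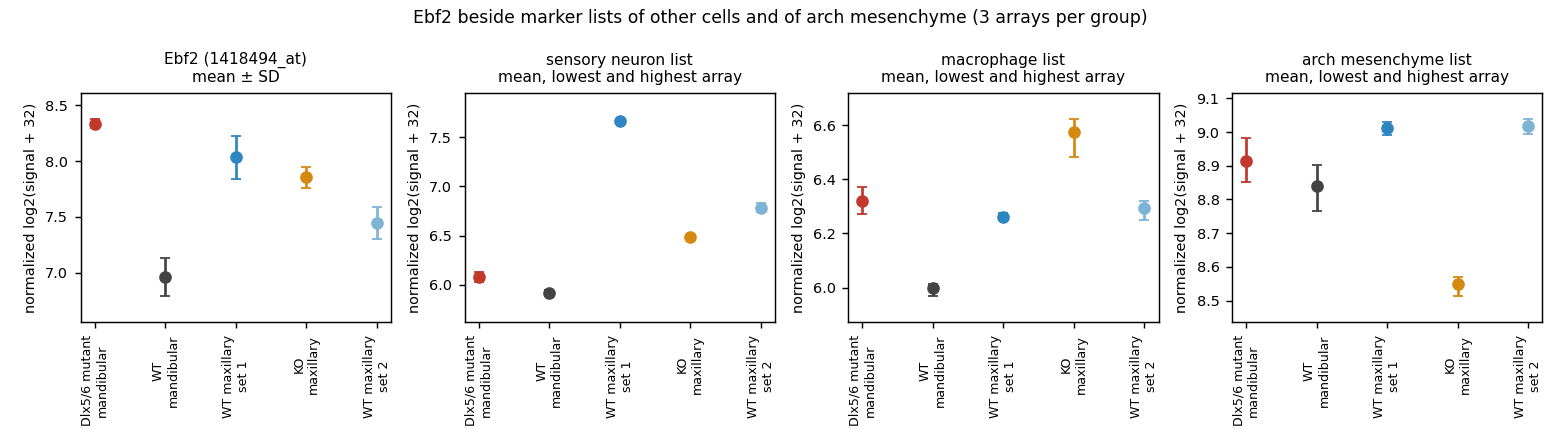
Normalized log2(signal + 32) (y axis) of Ebf2 probe set 1418494_at (mean ± SD) and of the mean of 3 marker lists (mean with lowest and highest array) by group (x axis), 3 arrays each. The macrophage list averaged 6.32 in Dlx5/6 mutant mandibular and 6.00 in WT mandibular arrays. The sensory neuron list averaged 6.08 in Dlx5/6 mutant mandibular, 5.92 in WT mandibular and 7.67 in WT maxillary set 1 arrays.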

How the data were processed

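Each probe set of the mouse expression array had 1 deposited intensity per sample, on a linear scale. Their mean without the lowest and highest 2% was 150.0 on every array, so the deposited intensities had been scaled. How probes were summarised is not given in the sources used here. Detection calls were not used, and 0 columns were left unmapped.

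Values were converted to log2(value + 32) and quantile normalized, since array medians spread by 0.159, above the limit of 0.1. Of 45101 probe sets, 64 were controls, and 31643 exceeded percentile 40 of their array on 3 or more arrays and were tested. The platform annotation gave 1 symbol for 34958 probe sets, several for 932 and none for 9211, and 34754 matched RefSeq. Each of 13934 genes was represented by its brightest kept probe set, preferring those without _s_at, _x_at or _a_at.

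Comparisons were contrasts in 1 limma model over 15 arrays (limma 3.58.1, R 4.3.3, 10 residual degrees of freedom, intensity trend). Two-sided p-values received a Benjamini-Hochberg adjustment across all tested probe sets, with 0.05 as threshold. The median SE was 0.148, and the number of arrays limits the precision. Named genes were the family, Dlx1, Dlx2, Dlx5, Dlx6, Ebf4, Zfp423 and Zfp521, up to 4 called genes per list and comparison with groups that did not overlap, and the 5 genes most like each member. The members and lists were chosen with earlier results of these data known. Other genes printed with values (Itih5, Foxl2os, Igf1, Sfrp2, Col1a1, Sp7, Alpl, Ibsp and 7 with opposite directions in the mutants, Lhx8, Pitx1, Prrx1, Ina, Isl1, Cdh5 and Tcf4) were chosen after their values were seen. Alternatives were a common median or no scaling, a smaller (8) and a larger pseudocount, no or a stricter filter, no intensity trend, array weights, a replicate block, the compared groups alone, leaving out each array and the other WT maxillary group.

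On simulated data for the Dlx5/6 mutant against WT mandibular comparison with 31643 probe sets, 98% of 2-fold changes were recovered, 7.35% of calls were false, and 0 calls were made in a comparison without changes. The signal levels and spread of the simulated data, and how the 2-fold changes were added, are not stated here. The log2 scale used also shrinks a 2-fold change of a dim signal. The 98% therefore holds for the simulated data only and does not tell how many 2-fold signal changes were missed in the measured data.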

Additional observations from a re-analysis of the deposited data

Results flagged for a closer look

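Of the 125 kept genes of the family and the lists, 17 had opposite directions in the Dlx5/6 mutant and the KO, with no overlap between mutant and control arrays in either comparison. This difference between the effects was not tested, and the effects differ in branch, genotype and set of arrays. The share of all genes with such opposite directions is not given here, and nothing is read from the count. Only Pou3f3, Lhx6 and Dlx1 were called in both comparisons. Every other gene below was uncalled in the Dlx5/6 mutant, in the KO or in both. Among the uncalled differences were Neurod1 in the KO and Isl1 in the Dlx5/6 mutant (limma, adjusted p = 0.36 and 0.17). Isl1, Ina, Cdh5 and Tcf4 were called in neither comparison (for Tcf4, limma, adjusted p = 0.80 and 0.11). Log2 differences are given as Dlx5/6 mutant minus WT mandibular, then KO minus WT maxillary set 2. Of maxillary marker genes, Pou3f3 differed by 2.16 and -0.77, Foxl2 by 1.61 and -0.27, Lhx6 by 1.05 and -1.42, Irx5 by 1.04 and -0.23, Irx3 by 0.87 and -0.28, and Lhx8 by 0.60 and -0.17. The mandibular marker Pitx1 differed by -1.85 and 0.22. Of arch mesenchyme genes, Dlx1 differed by 0.72 and -1.62 and Prrx1 by 0.19 and -0.28. On the neurogenic and sensory neuron lists, Neurod1 differed by 0.56 and -0.32, Nefl by 0.51 and -0.72, and Ina by 0.19 and -0.35. On these lists Lhx2 and Isl1 ran opposite to those genes, by -0.29 and 0.74 and by -0.30 and 0.42. The muscle gene Myf5 differed by -0.92 and 0.43, the endothelial gene Cdh5 by -0.38 and 0.31, and the EBF partner list's Tcf4 by 0.0719 and -0.28.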

How the results depend on the processing

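Of 670 Ebf values under other settings, 657 kept their direction. This count says little, because many of these values could not change. Other filters, no intensity trend, a replicate block and the compared groups alone leave a difference as it was. The count also includes the comparison that chose the genes. For Dlx5/6 mutant minus WT mandibular, 841 probe sets were called, 452 without the intensity trend and 502 to 654 without single arrays (502 without mutant replicate 2, 520 without mutant replicate 3). Ebf1 1416302_at moved to 0.32 with the larger pseudocount, and Ebf2 1418494_at to 1.57 with the smaller and 0.92 with the larger. For WT mandibular minus WT maxillary set 1, the 835 calls became 3318 with set 2, and Ebf2 1418494_at moved to -0.71 with the larger pseudocount and -0.48 with set 2. There Zfp423 turned to 0.91. For Dlx5/6 mutant minus WT maxillary set 1, the 188 calls became 125 without the trend, 121 to 147 without single arrays (121 without mutant replicate 2) and 3536 with set 2, where Ebf2 1418494_at was 0.89 and Ebf1 1448293_at turned to 0.53 (limma, adjusted p = 0.0063). For KO minus WT maxillary set 2, the 289 calls became 172 without the trend, 176 to 221 without single arrays (189 without KO replicate 2, 176 without set 2 replicate 1, 181 without set 2 replicate 3) and 3310 with set 1, where Col1a2 turned to -0.0044. With set 1, Ebf2 1418494_at also turned to -0.18, Ebf1 1448293_at to -0.35 and Ebf3 1428349_s_at to 0.15 (limma, adjusted p = 0.37, 0.071 and 0.34). Ebf3 1452751_at passed with a common median (-0.37) and without set 2 replicate 2 (-0.36), and ranged from -0.36 to -0.25 without single arrays. Settings with the other WT maxillary group cross the sets of arrays. Other causes were not tested.

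With a common median, the share of higher calls was 48.0%, 56.5%, 45.5% and 32.7% in these 4 comparisons, against 52.9%, 42.6%, 34.0% and 50.9% with quantile normalization. A replicate block gave 779, 787, 177 and 260 calls. Deviations from group means of same-numbered arrays correlated at -0.096 to 0.085 (30 pairs), and the numbers were taken as names only. The 3 arrays per group limit what a missed call can show, and dim probe sets limit the B cell and bone lists.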
